A study of Mus musculus with 4 samples.

Results

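The 10 genes described here are the kallikrein-related peptidase genes Klk5, Klk6, Klk7, Klk8, Klk10, Klk11, Klk12, Klk13 and Klk14 and the inhibitor gene Spink5, picked by name out of the 25814 genes listed for each library. They were followed in keratinocytes (KCs), the principal cells of the epidermis, taken from the tails of adult mice and compared between genotypes to ask how loss of the transcription factor NFAT5 alters gene expression. All 4 libraries came from untreated 129/sv cells kept in serum-free medium with 0.06 mM calcium, 2 of wild-type (WT) and 2 of Nfat5-/- genotype, as independent experiments. The WT animals were littermates of the Nfat5-/- animals. Tails travelled overnight on ice before the cells were prepared. Which stretch of the gene the Nfat5-/- allele lacks, and how long these 4 cultures were kept, is not given in the sources used here.

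Kallikreins are secreted serine proteases that are made as inactive precursors and switched on by cutting, largely by one another. In the outer epidermis they cut the proteins of corneodesmosomes, the junctions that hold the dead surface cells together, and so allow those cells to be shed. Spink5 encodes LEKTI, a secreted inhibitor whose fragments block several kallikreins, and its loss in people causes Netherton syndrome, a disease of unchecked shedding.

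The 9 Klk genes lie in a row on the plus strand of chromosome 7 on GRCm38, in the order Klk14, Klk13, Klk12, Klk11, Klk10, Klk8, Klk7, Klk6 and Klk5, between positions 43690418 and 43851181. Klk8 spans 43797577 to 43803826, Klk7 43811294 to 43816359, Klk6 43824499 to 43832030 and Klk5 43841971 to 43851181. Spink5 lies on another chromosome. The sequences just upstream of 3 neighbours are shown because Klk6 and Klk7 stood higher in both libraries labelled Nfat5-/- while the groups overlapped in the adjoining Klk8, the most abundant member. They are RefSeq sequences on GRCm38.p6, plus strand, ending at the last base before the annotated gene start, at chr7:43797327-43797576 for Klk8, chr7:43811044-43811293 for Klk7 and chr7:43824294-43824498 for Klk6. Capitals mark GGAAA or its reverse complement TTTCC, the core letters bound by NFAT-family factors.
Klk8: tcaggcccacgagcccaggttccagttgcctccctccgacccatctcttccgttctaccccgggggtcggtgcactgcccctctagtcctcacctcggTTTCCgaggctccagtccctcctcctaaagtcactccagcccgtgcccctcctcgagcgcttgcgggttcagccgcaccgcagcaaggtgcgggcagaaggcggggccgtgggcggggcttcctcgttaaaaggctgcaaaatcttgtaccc
Klk7: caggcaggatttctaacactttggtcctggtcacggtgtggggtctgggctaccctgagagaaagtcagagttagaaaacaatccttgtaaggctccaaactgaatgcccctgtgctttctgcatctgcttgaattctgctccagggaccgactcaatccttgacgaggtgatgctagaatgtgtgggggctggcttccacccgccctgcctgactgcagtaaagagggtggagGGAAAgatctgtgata
Klk6: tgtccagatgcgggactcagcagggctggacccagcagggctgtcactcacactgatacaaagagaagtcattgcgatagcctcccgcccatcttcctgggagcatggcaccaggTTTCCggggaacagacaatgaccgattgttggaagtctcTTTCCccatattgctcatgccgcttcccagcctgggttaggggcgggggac
The Klk8 and Klk7 stretches each hold 1 match and the Klk6 stretch holds 2. Over the 250 bases before each RefSeq start, 8 of the 11 windows found for the 9 Klk members' names held GGAAA on either strand, beside 55.6% of 32851 windows of that length in the table. The longer string TGGAAA, which contains GGAAA, was found in 1 of the 11 windows, that of Klk11, beside 18.6% of all windows. These matches are letters in a sequence and describe neither a bound site nor a cause. The single window of Klk5 begins inside the annotated gene and is not printed.

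Depth lay between 16219445 and 23494436 gene reads per library, so that 3 reads, the limit allowed by a count of 0, corresponded to 0.128 to 0.185 CPM (reads scaled to the library total). Floors and counting intervals cover counting error only. Of the KC markers, the basal keratins were high, with Krt5 at 4990 to 5775 RPKM (exon reads divided by exon length and library size) and Krt14 at 5148 to 6985 RPKM, while Krt15, also on the basal list, stood at 0.0797 to 0.440 RPKM. On the suprabasal list Krt10 stood at 0.520 to 0.854 RPKM and Sbsn at 24.5 to 70.1 RPKM. Nfat5 itself had 408 and 929 reads in WT replicates 1 and 2 and 715 and 770 reads in replicates 1 and 2 labelled Nfat5-/- (log2 fold change 0.09, SE 0.26, edgeR adjusted p = 0.913). The Nfat5 reads of the whole gene did not separate the labels, and the tables give no reads for the deleted stretch alone. They are therefore no check of the labels in either direction, and directions below are those between labelled libraries.

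Klk8 and Klk10 supplied most kallikrein RNA in both groups, and the other members were far lower. Klk8, a trypsin-like protease also known as neuropsin, averaged 76.0 ± 7.69 RPKM under the WT label and 82.4 ± 10.2 RPKM under the Nfat5-/- label (SD of 2 libraries). Klk10, a family member whose substrates are poorly known, averaged 27.2 ± 7.87 and 36.4 ± 7.57 RPKM. Together they made up 92.3% and 94.9% of the summed RPKM of the 9 Klk members in WT replicates 1 and 2, and 89.7% and 88.3% in replicates 1 and 2 labelled Nfat5-/-. In WT the order by mean RPKM went on with Klk7, Spink5, Klk6, Klk11, Klk5, Klk13, Klk14 and Klk12. Within it, the libraries of Klk7 and Spink5 overlapped, as did those of Klk6 and Klk11, of Klk13 and Klk14, and of Klk14 and Klk12. In the libraries labelled Nfat5-/-, Klk6 stood before Spink5, Klk5 before Klk11 and Klk14 before Klk13, though the libraries of Klk6 and Spink5 overlapped. Every exon read of every member was placed at a single site in the genome, so near-identical copies did not share their reads.

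**Figure D1:**
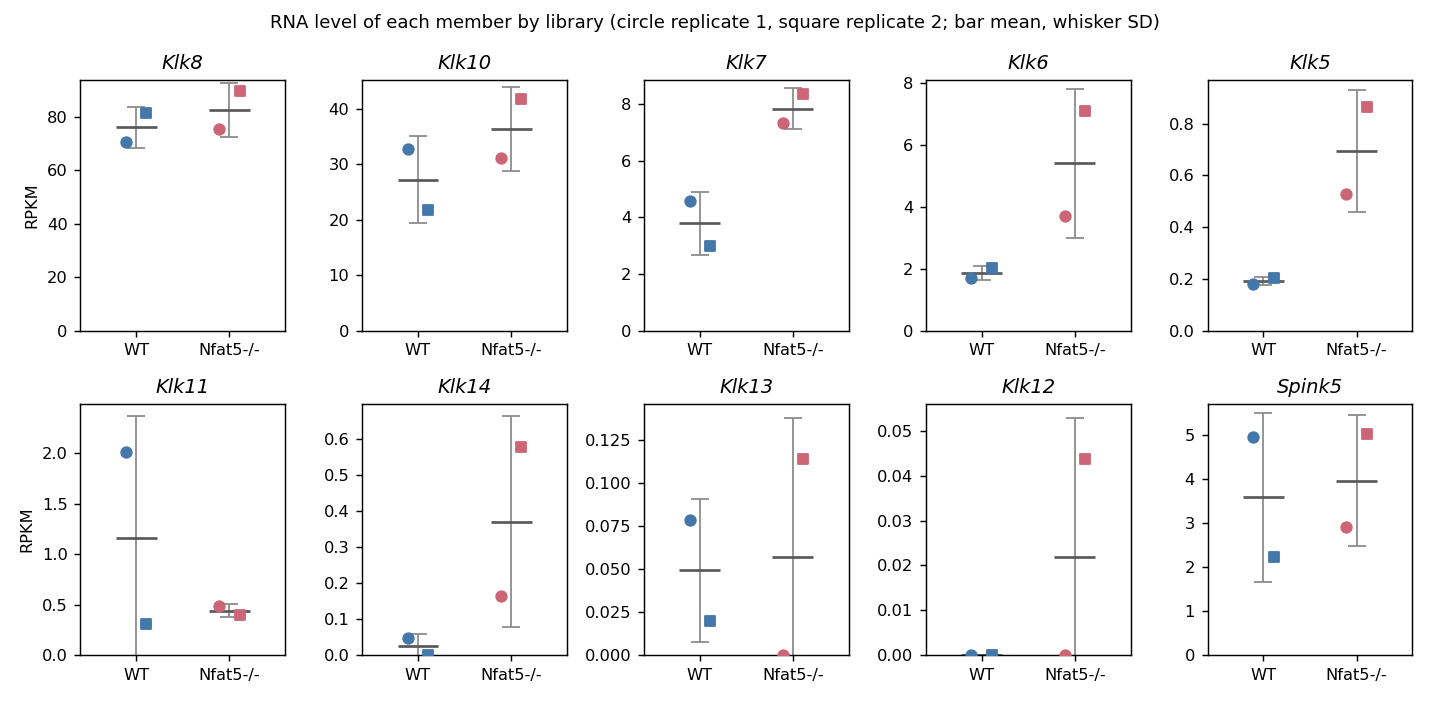
RNA level in RPKM (vertical axes, separate scale for each gene, all starting at 0) of the 10 members in WT libraries (blue) and libraries labelled Nfat5-/- (red). Circles are replicate 1, squares replicate 2, bars the mean and whiskers the SD of 2 libraries. For Klk7, Klk6, Klk5 and Klk14 both red points lie above both blue points, while for Klk8, Klk10 and Spink5 the groups overlap.

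Klk5, Klk6 and Klk7, the 3 neighbours at the far end of the row, had higher RNA in both libraries labelled Nfat5-/- than in either WT library, at 2.07 (Klk7), 2.89 (Klk6) and 3.63 (Klk5) times the WT mean RPKM. None of them passed the threshold over all genes. Klk7, a chymotrypsin-like protease that cuts corneodesmosin, stood at 4.57 and 3.002 RPKM in WT replicates 1 and 2 and at 7.32 and 8.35 RPKM in replicates 1 and 2 labelled Nfat5-/-, from 145, 126, 335 and 302 reads. The lower of its libraries labelled Nfat5-/- thus lay well above the higher WT library. The log2 fold change was 1.07 (SE 0.23), a fold of 2.11, with an edgeR adjusted p of 0.0812. Klk6, a trypsin-like protease also abundant in the nervous system, stood at 1.71 and 2.03 RPKM in the WT libraries and at 3.70 and 7.10 RPKM in those labelled Nfat5-/-, from 43, 68, 136 and 205 reads. The groups did not overlap, but the libraries labelled Nfat5-/- differed from each other more than the lower of them did from WT. Its log2 fold change was 1.54 (SE 0.34), a fold of 2.91, with an edgeR adjusted p of 0.0923, and ran from 0.995 without replicate 2 labelled Nfat5-/- to 1.95 without replicate 1 of that label.

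Klk5, a trypsin-like protease known to start the kallikrein cascade by cutting itself and the precursor of Klk7, was a scarce transcript. It stood at 0.180 and 0.203 RPKM in the WT libraries and at 0.528 and 0.863 RPKM in those labelled Nfat5-/-, from 4, 6, 17 and 22 reads. WT values were close to the floor of 3 reads, and both libraries labelled Nfat5-/- lay above them. Its log2 fold change was 1.83 (SE 0.52), a fold of 3.56, with an edgeR adjusted p of 0.172. Over the alternatives the estimate ran from 0.50, by limma-trend on log2(RPKM + 1) without a filter, to 2.17 without replicate 1 labelled Nfat5-/-, and the adjusted p from 0.0437 to 0.797. Klk5 came through the filter on low counts only by way of the libraries labelled Nfat5-/-, so a difference in that direction was built into its being tested.

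Of the 10 members, 7 were tested and 0 passed the edgeR threshold (adjusted p under 0.05 over 12614 genes), beside 1.27% of all genes tested. Klk5, Klk6 and Klk7 were the 3 members with an unadjusted p under 0.05, all of them higher under the Nfat5-/- label, beside 8.17% of all genes in that direction, and 0 were lower, beside 6.47%. Klk5 had to differ in that direction to be tested at all, so it adds nothing to that count, which leaves Klk6 and Klk7 of the 6 other tested members. By unadjusted p Klk7 ranked 303, Klk6 347 and Klk5 685 among the genes tested. In RPKM, 4 of the 10 members (Klk5, Klk6, Klk7 and Klk14) had both libraries labelled Nfat5-/- above both WT libraries, or 3 of the 7 tested and, without Klk5, 2 of the 6 others, beside 21.6% of genes tested, and 0 had both below, beside 25%. The median log2 fold change of the 7 tested members, Klk5 included, was 0.45 and that of all genes tested -0.01, given as a description. Klk5 had the highest estimate of the 7, so its being tested can only raise that median. The study listed the transcripts of Klk6 and Klk7 as higher from these same libraries, so their direction here is no independent evidence. DESeq2, which called 2.31% of its genes higher, placed Klk6 (adjusted p = 0.00746) and Klk7 (adjusted p = 0.00855) past the threshold, whereas limma-trend on RPKM called 0 members. With no filter on low counts edgeR placed 5 members past the threshold (Klk5, Klk6, Klk7, Klk10 and Klk14), all higher, beside 4.01% of genes. Over all alternatives the adjusted p ran from 5.19e-08 to 0.496 for Klk6 and from 2.69e-06 to 0.480 for Klk7, with the same direction in each.

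Markers of other cell states and types differed between the same libraries. Of all genes tested, edgeR called 1.27%, with 41 of 12614 lower. At an unadjusted p under 0.05, 8.17% were higher and 6.47% lower. DESeq2 called 2.31% of its genes higher and 118 of 12915 lower. Of 9 suprabasal KC markers tested, 2 were called, both higher in the libraries labelled Nfat5-/- (Krtdap and Tgm3), 5 were higher at an unadjusted p under 0.05, and DESeq2 called 3 (Tgm1 as well). Krt1, among those 5, came through the filter only by way of the libraries labelled Nfat5-/- (7, 8, 16 and 38 reads). Of 7 basal markers edgeR called 0, with 1 lower at an unadjusted p under 0.05, and DESeq2 called 0. The summed RPKM of the suprabasal list was 33.1 to 68.7 under the WT label and 72.7 to 101.6 under the Nfat5-/- label. Most of that sum was Sbsn, whose libraries overlapped between groups (56.5 and 24.5 against 43.3 and 70.1 RPKM, edgeR adjusted p = 0.597), and Krt10 had a log2 fold change of -0.49 (edgeR adjusted p = 0.547). All 4 smooth muscle markers tested (Acta2, Tagln, Cnn1 and Myh11) were called higher, with a summed level of 151 to 184 RPKM under the WT label and 518 to 819 RPKM under the Nfat5-/- label, while Des, the fifth of that list, had a single read over all libraries. Myh11 (1, 1, 22 and 40 reads) was tested only through the libraries where it is high, which leaves 3 others. Of 5 melanocyte markers tested, Tyrp1 was called lower, 3 were lower at an unadjusted p under 0.05, and DESeq2 called Pmel lower as well. The list had a summed level of 7.34 to 7.76 RPKM under the WT label against 2.31 to 3.26 RPKM. Mitf went the other way, the 1 tested marker of that list with a positive estimate (log2 fold change 0.27, edgeR adjusted p = 0.761). No fibroblast, immune or gland and follicle marker was called by edgeR among 2, 3 and 3 tested (unadjusted p under 0.05 in 0, 0 and 1), and DESeq2 called 0, 0 and 1 of them. The last was Krt79 (3, 4, 27 and 56 reads), again tested only through the libraries labelled Nfat5-/-. The part of these markers in the Klk5, Klk6 and Klk7 values was not tested.

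The 2 most abundant members, Klk8 and Klk10, overlapped between the groups. Klk8 stood at 70.5 and 81.4 RPKM in WT replicates 1 and 2 and at 75.2 and 89.6 RPKM in replicates 1 and 2 labelled Nfat5-/-, from 1554, 2388, 2407 and 2277 reads. Replicate 2 was the higher in each group, and the groups overlapped. The log2 fold change was 0.14 (SE 0.13, edgeR adjusted p = 0.678), with an interval of 2 SE from -0.12 to 0.41. The test does not show that its levels were equal. In Klk10 the values were 32.8 and 21.6 RPKM under the WT label and 31.0 and 41.7 RPKM under the Nfat5-/- label, from 753, 663, 1035 and 1106 reads. WT replicate 1 lay above the lower library labelled Nfat5-/-, so the groups overlapped. Its log2 fold change was 0.45 (SE 0.22, edgeR adjusted p = 0.416), and ran from 0.17 without WT replicate 2 to 0.78 without WT replicate 1. Without replicate 2 labelled Nfat5-/-, the Klk8 estimate was -0.01. Per GENCODE M21, a transcript on the minus strand, 2310002F09Rik, runs across the row from within Klk14 to the start of Klk8, and 2 of its exons touch exons of Klk8. No use of strand in the counting is stated, and its reads cannot be told apart from those of Klk8.

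Relative to Klk8 in the same library, Klk7 and Klk6 were both higher in the libraries labelled Nfat5-/-. The RPKM ratio of Klk7 to Klk8 was 0.0648 and 0.0369 under the WT label, and 0.0973 and 0.0932 under the Nfat5-/- label. For Klk6 it was 0.0242 and 0.0249 under the WT label, against 0.0493 and 0.0792. Both genes were already apart between groups in RPKM. The ratio of Klk10 to Klk8, at 0.465 and 0.266 against 0.412 and 0.466, overlapped between groups. These ratios do not depend on the scaling between libraries. Those of Klk7 and Klk6 show unequal change within a library and not which of the genes changed.

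Klk11, Klk12, Klk13 and Klk14 were low or scarcely detected. Klk11, a trypsin-like protease, was the one tested member with a negative estimate, and 1 WT library set it. It stood at 2.01 and 0.309 RPKM in WT replicates 1 and 2 and at 0.482 and 0.394 RPKM in replicates 1 and 2 labelled Nfat5-/-, from 50, 13, 19 and 12 reads. Only WT replicate 1 was high, and WT replicate 2 was the lowest of the 4. The log2 fold change was -1.26 (SE 0.72, edgeR adjusted p = 0.475). Without WT replicate 1 it was 0.31, and without WT replicate 2 it was -2.05 with an edgeR adjusted p of 0.0347, against a range of 0.0347 to 0.930 over all alternatives. Each of these fits keeps a single WT library, which is assumed to vary like the other group.

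Klk14, a trypsin-like protease that cuts desmoglein in the epidermis, had 1 and 0 reads in the WT libraries and 5 and 14 reads in those labelled Nfat5-/-. Both of the latter were above both WT libraries, but the gene did not pass the filter on low counts and has no p. Its summed reads scaled to library size gave a ratio of 17.1 with an exact 95% counting interval from 2.71 to 709. Such intervals pool the reads of a group and leave out the spread between libraries. The minus-strand transcript 2310002F09Rik also touches an exon of Klk14, and the listed genes Gm44817 and Gm44814 overlap Klk14 and Klk13. Klk13, a trypsin-like protease of stratified epithelia, had 5, 3, 1 and 7 reads in the same order of libraries. The groups overlapped, with a ratio of 0.898 and an interval from 0.294 to 2.74. Klk12, another trypsin-like member, had 0, 1, 1 and 1 reads, under the floor in every library, so no difference was detectable at this depth.

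The libraries of the inhibitor gene Spink5 (chromosome 18, 43963235 to 44022501) overlapped between groups, unlike those of Klk5, Klk6 and Klk7. It stood at 4.95 and 2.23 RPKM in WT replicates 1 and 2 and at 2.92 and 5.02 RPKM in replicates 1 and 2 labelled Nfat5-/-, from 398, 241, 340 and 463 reads. One library of each group was high and the other low, and the groups overlapped. The log2 fold change was 0.17 (SE 0.39, edgeR adjusted p = 0.887), with an interval of 2 SE from -0.60 to 0.94, wide enough to hold a rise or a fall by more than 1.5 times. The estimate was 0.85 without WT replicate 1, -0.31 without WT replicate 2, and 0.53 and -0.29 without replicates 1 and 2 labelled Nfat5-/-.

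Set against Spink5 in the same library, the RNA of Klk5, Klk6 and Klk7 was higher in both libraries labelled Nfat5-/-. The RPKM ratio of Klk7 to Spink5 was 0.923 and 1.35 under the WT label, and 2.51 and 1.66 under the Nfat5-/- label. That of Klk6 was 0.345 and 0.911, then 1.27 and 1.41, in the same order of libraries. For Klk5 it was 0.0364 and 0.0911, against 0.181 and 0.172. In all 3 the groups were apart, as they already were in RPKM without the division by Spink5. Klk5 rested on 4 and 6 WT reads and was tested only through the libraries labelled Nfat5-/-. The share of all genes whose ratio to Spink5 separates the groups was not computed. The ratio of Klk8, at 14.2 and 36.5 against 25.8 and 17.8, overlapped between groups. Klk10, at 6.62 and 9.72 against 10.6 and 8.31, overlapped too. No test was run on the ratios. The smallest two-sided p that an exact permutation test of 2 against 2 libraries can give is 0.333.

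**Figure D2:**
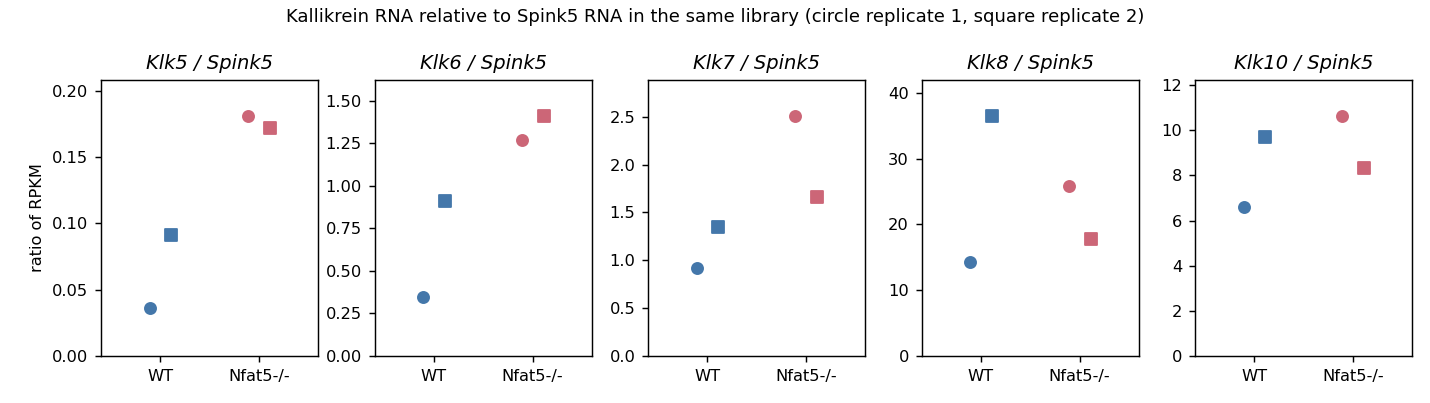
RPKM of Klk5, Klk6, Klk7, Klk8 and Klk10 divided by the RPKM of Spink5 in the same library (vertical axes, no unit, starting at 0), for WT libraries (blue) and libraries labelled Nfat5-/- (red), circles replicate 1 and squares replicate 2. The red points lie above the blue ones for Klk5, Klk6 and Klk7, and the colours overlap for Klk8 and Klk10.

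Along the row, the estimates followed no single order. The log2 fold change was -1.26 in Klk11, 0.45 in Klk10, 0.85 in Klk9 (no member), 0.14 in Klk8, 1.07 in Klk7, 1.54 in Klk6 and 1.83 in Klk5, of which Klk5 was tested only through the libraries labelled Nfat5-/-. The interval of 2 SE of Klk7 (0.62 to 1.53) lay above that of Klk8, while those of Klk7, Klk6 (0.86 to 2.23) and Klk5 (0.79 to 2.87) overlapped one another. The differences between neighbours were not tested. Gaps of 7467, 8139 and 9940 bases separate Klk8 from Klk7, Klk7 from Klk6 and Klk6 from Klk5. Taking in 250 kb on each side of the outermost Klk genes, 57 genes are listed, of which 26 bear a Klk name and 15 of these had no read in any library. Of the 16 genes tested there, 0 passed the edgeR threshold and 4 had an unadjusted p under 0.05, Klk5, Klk6, Klk7 and Vsig10l, all higher in the libraries labelled Nfat5-/-, beside 8.17% of all genes tested, with Klk5 subject to the limit above. DESeq2 called Klk6 and Klk7 there, beside 2.31% of its genes. The 10 tested genes of the stretch that are not members had a median log2 fold change of 0.12.

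**Figure D3:**
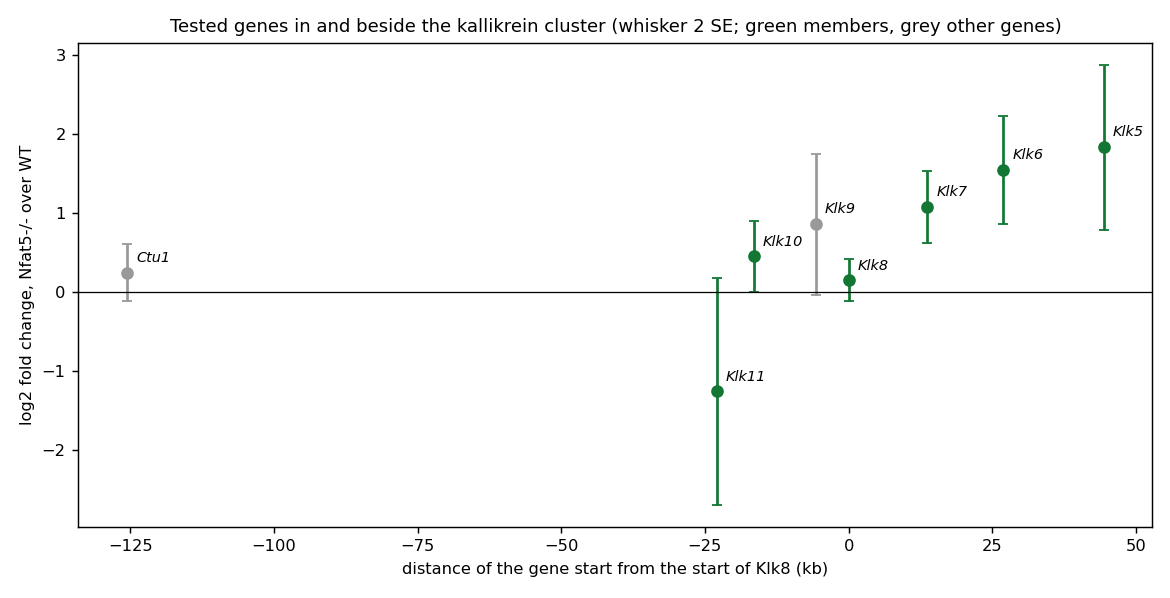
Log2 fold change between libraries labelled Nfat5-/- and WT (vertical axis) of tested genes in and beside the kallikrein row, against the distance of the gene start from that of Klk8 in kb (horizontal axis). Points are edgeR estimates, whiskers 2 SE, members green and other genes grey. Klk8 lies at 0.14, and Klk7, Klk6 and Klk5 to its right lie at 1.07, 1.54 and 1.83 with whiskers clear of 0.

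The other kallikrein genes were nearly silent in these cells. Of 17 listed, 15 had no read in any library and Klk9 was the only one tested. Klk9, which lies between Klk10 and Klk8, had 0.897 and 0.367 RPKM under the WT label and 1.24 and 0.923 RPKM under the Nfat5-/- label (log2 fold change 0.85, SE 0.45, edgeR adjusted p = 0.437). Both of its libraries labelled Nfat5-/- lay above WT, the lower by a narrow margin.

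Genes around the kallikreins in the shedding of surface cells were counted on lists of their own. Of 16 other proteases linked to shedding or cornification, 15 were tested, 1 passed the threshold and 6 had an unadjusted p under 0.05, all higher in the libraries labelled Nfat5-/-, with a median log2 fold change of 0.39. DESeq2 called 3 of them (Asprv1, Casp14 and Prss27). The shares over all genes tested, for this list and those that follow, were 1.27% past the edgeR threshold, 8.17% higher at an unadjusted p under 0.05 and 2.31% called higher by DESeq2. The one past the threshold was Asprv1, which encodes a retroviral-like aspartic protease that processes filaggrin, with 15.7 and 18.6 RPKM under the WT label and 48.7 and 70.3 RPKM under the Nfat5-/- label (log2 fold change 1.81, SE 0.20, edgeR adjusted p = 0.0159). Several of these proteases, Asprv1 among them, were picked by the study from these libraries. Among 15 other protease inhibitors of the epidermis, 7 were tested and 0 passed the edgeR threshold, 3 were higher at an unadjusted p under 0.05, and DESeq2 called 1, Wfdc2. Their median log2 fold change was 0.03.

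Of 12 genes for kallikrein substrates and corneodesmosome proteins, 10 were tested and 2 passed the threshold, both higher in the libraries labelled Nfat5-/-. They were also the 2 that were higher at an unadjusted p under 0.05, and 1 was lower, beside 6.47% of genes tested. The lower one was Tslp, a cytokine gene, at 76.4 and 28.0 RPKM under the WT label and 21.4 and 19.0 RPKM under the Nfat5-/- label (log2 fold change -1.36, SE 0.41, edgeR adjusted p = 0.190). Dsg1b, which encodes a desmoglein cut by kallikreins, stood at 0.501 RPKM in both WT libraries and at 2.27 and 3.06 RPKM in those labelled Nfat5-/- (log2 fold change 2.42, SE 0.25, edgeR adjusted p = 0.0129). Its near-copy Dsg1a had 0.148 and 0.103 RPKM, against 0.489 and 0.755 RPKM (log2 fold change 2.34, SE 0.39, edgeR adjusted p = 0.0416), and reads of such copies are uncertain, although both were also called on uniquely placed exon reads. Under the replicate block, Dsg1a was no longer called. Without replicate 2 labelled Nfat5-/-, 0 of the list were called, without replicate 1 of that label Dsg1b alone, and without WT replicate 2 Cdsn and Tslp were called lower beside Dsg1a and Dsg1b. The list's median log2 fold change was 0.09. Cdsn, the corneodesmosin gene and a classical Klk7 substrate, had 11.2 and 3.57 RPKM under the WT label and 6.20 and 7.06 RPKM under the Nfat5-/- label, and the groups overlapped. As in Klk7, Klk10, Klk11 and Spink5, WT replicate 1 was the higher WT library of Cdsn, as it was for the suprabasal sum, while Klk5, Klk6 and Klk8 were higher in WT replicate 2.

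**Figure D4:**
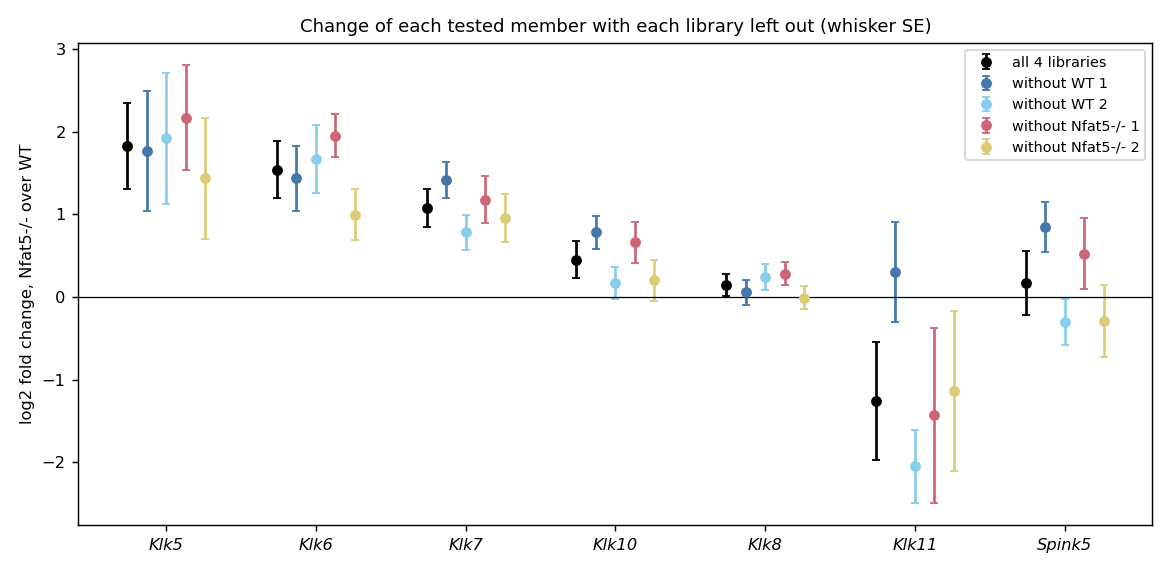
Log2 fold change between libraries labelled Nfat5-/- and WT (vertical axis) for the 7 tested members, with all 4 libraries (black) and with each library left out in turn (colours). Whiskers are SE. The estimates of Klk5, Klk6 and Klk7 stay above 0 in all 5 fits, and those of Klk8, Klk11 and Spink5 cross 0 when a library is left out. With all 4 libraries, Klk5 was tested only through those labelled Nfat5-/-.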

How the data were processed

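Total RNA of the 4 libraries was enriched for poly(A) RNA, sequenced, and aligned by the authors to GRCm38 with the CLC Genomics Workbench at default settings. The deposited tables hold 1 line per gene with read counts (whole gene, exons, introns, uniquely placed), which the authors had not normalized, and with RPKM values made by the authors and written with decimal commas. No use of strand in the counting is stated. Gene reads were filtered with filterByExpr (10 reads at the median library size, 0.497 CPM), scaled with TMM factors (0.980 to 1.01) and tested two-sided with the edgeR 4.0.16 quasi-likelihood method in R 4.3.3, with genotype as the sole term and Benjamini-Hochberg adjustment over 12614 genes (threshold 0.05). SE is the log2 fold change divided by the square root of F. Groups and replicate numbers came from the sample titles. Samples differed by more than sampling noise (chi-square per degree of freedom 16.7 in WT and 17.3 between the libraries labelled Nfat5-/-) and counted as separate. That excess does not show whether the libraries of a group came from different animals. P-values measure the spread between these libraries.

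The members and gene lists were chosen with earlier results of these data known. All members are named, and genes of other lists where past the threshold. Klk9, Vsig10l, Wfdc2, Cdsn, Tslp, Sbsn, Tgm1, Krt1, Krt15, Krt79, Casp14, Prss27, Pmel, Mitf, Des, Krt5, Krt14 and Krt10 were named after their values were seen. Alternatives were RLE factors, library totals, other filters, DESeq2 1.42.0, limma-trend 3.58.1 on log2(RPKM + 1) and log2(RPKM + 0.1), exon and uniquely placed reads, a replicate block, and each library left out in turn. The procedure was tested on simulated data. Promoter windows are from RefSeq on GRCm38.p6, and overlaps from GENCODE M21, in which all 10 members had the same coordinates.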

Additional observations from a re-analysis of the deposited data

Results flagged for a closer look

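Intron reads are a small part of the gene reads tested above and were not compared on their own there. Those of Klk8 and Klk10 were higher in both libraries labelled Nfat5-/- than in either WT library. Klk8 had 4 and 5 intron reads under the WT label and 12 and 16 under the Nfat5-/- label, a mean of 0.239 ± 0.0108 CPM against 0.684 ± 0.246 CPM (SD, n = 2 each). Klk10 had 5 intron reads in each WT library, and 9 and 12 under the Nfat5-/- label, a mean of 0.270 ± 0.0544 CPM against 0.513 ± 0.184 CPM. Of the tested genes with at least 10 intron reads in all, 9.42% of 9784 showed the same order of libraries, and so did 2 of the 3 members with that many. The third, Spink5, had 4, 5, 4 and 4 intron reads. The minus-strand transcript 2310002F09Rik runs over Klk10 and the start of Klk8, and its part in these reads was not tested.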

How the results depend on the processing

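The number of members past the threshold was 0 in the fit reported and under both other scalings, the stricter filter, exon reads, uniquely placed reads, both filtered limma-trend fits, limma-trend without a filter and the replicate block. It was 5 without a filter (Klk5, Klk6, Klk7, Klk10 and Klk14), 2 with DESeq2, and 0 to 1 with a library left out (Klk7 without WT replicate 1, adjusted p = 0.0116; Klk11 without WT replicate 2). Such a fit leaves 1 group with a single library, assumed to vary like the other group. Over all genes, 160 passed in the fit reported, 1137 without a filter, 416 with DESeq2, 0 with limma-trend without a filter (1047 higher and 890 lower at an unadjusted p under 0.05), and 16 to 478 with a library left out. Other proteases numbered 1, against 6 without a filter, 3 with DESeq2, 0 with limma-trend without a filter and 1 to 2 with a library left out. Inhibitors numbered 0, against 2 without a filter, 1 with DESeq2 and 0 to 1 with a library left out. Substrates numbered 2, against 3 without a filter (Tslp, lower, as well), 1 under the replicate block (Dsg1a lost), 1 in each filtered limma-trend fit, 0 in limma-trend without a filter, and 0 to 4 with a library left out. Leaving out a library moved Klk10 between 0.17 and 0.78 and turned the sign of Klk8 (-0.0069 to 0.28), Klk11 (-2.05 to 0.31) and Spink5 (-0.31 to 0.85; -0.29 without replicate 2 labelled Nfat5-/-). The cause of these changes was not tested. The replicate block called 132 genes and 0 members. Same-numbered libraries did not deviate together (correlation -0.065), and the numbers were not taken as pairs. With 2 libraries a group and few reads in Klk5, Klk11, Klk12, Klk13 and Klk14, differences in those genes are the least certain.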

Other observations

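Among 9057 tested genes with a mean of at least 2 RPKM, the genes whose centred log2(RPKM + 1) values over the 4 libraries lay nearest to those of Klk7 were Lmo7, Lypd5 and 2310046K23Rik, at Euclidean distances of 0.0674, 0.0945 and 0.107. Only 2 genes lay within 0.1 of Klk7. For Klk8 the nearest were Aak1, Zswim8 and Samd4b, at 0.0233, 0.0253 and 0.0294, and 86 genes lay within 0.1. With 4 libraries such likeness is a description of these values alone.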
